A study of Mus musculus with 15 samples.

Results

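Lymphocyte transcripts were followed in dysplastic lung through a list of 36 genes, chosen by name as established markers of T cells (17 genes), of natural killer (NK) cells and cytotoxic cells (10), of B cells (8), and Ltb, which T and B cells share. The choice was made with earlier results of these data known. Each gene was read from 1 probe set that the annotation of the array gives to that gene alone, the one with the highest mean signal over the 15 arrays, out of 18193 genes that have such a probe set. That gave a value for 34 members. Lck and Klrb1c have no probe set of their own and carry no value. For a test the signal had to average more than 100 across the 15 arrays, which 26 members met (11 T, 7 NK, 7 B, and Ltb). The 8 dimmer members were Cd4, Cd8b1, Cd6, Ctla4, Foxp3, Ncr1, Prf1 and Pax5, which are given by their values.

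T cells recognise antigen through a receptor that signals by way of the CD3 chains, whereas NK cells need no such receptor and kill through granules that hold perforin and proteases called granzymes. B cells carry an immunoglobulin receptor that signals through CD79 and can mature into plasma cells, the source of secreted antibody. All of these cells circulate through the capillary bed of the lung, and some reside in its tissue.

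The animals were SP-C/c-raf mice, in which the surfactant protein C promoter directs the c-raf transgene to alveolar epithelium, and mice without the transgene, both on a C57BL/6 background. Dysplastic foci (group dysplasia) and transgenic but unaltered tissue (group transgenic) came from transgenic mice aged 5 to 7 months, and the third group (non-transgenic) from mice aged 7 to 10 months. All samples were cut out by laser microdissection and hybridised to Affymetrix mouse arrays, 5 per group. By the methods the dysplastic and unaltered samples came from the same 5 transgenic mice, so these groups share their animals. No treatment was given, so the controls differ from dysplasia in tissue change and, for the non-transgenic group, also in transgene and age, which cannot be told apart. The non-transgenic arrays were also mostly female by Xist, unlike the other groups (given below).

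Mean signals per array ran from 692 to 775, and precision is limited by having 5 arrays in each group. Xist and Y-linked transcripts marked 4 of 5 transgenic arrays and 1 of 5 non-transgenic arrays as male, and dysplasia 4 carried both kinds of transcript. On dysplasia 4 and transgenic 4, Xist was 9674 and 85 and the Y-linked Eif2s3y 494.6 and 1567.2, so these arrays do not match. Sftpc, the surfactant gene of alveolar type 2 cells, was bright on all 15 arrays (15342 to 36063). Transgenic 2 has conflicting labels, since its title gives unaltered tissue and its other entries tumor. The actin ratio (5′ over 3′ signal), which tracks RNA integrity, was 69.9% and 75.2% on dysplasia 1 and 2 and 25.1% to 57.1% on the other dysplasia arrays. Dysplasia 1 and transgenic 1 each held the lowest value of their group in 17 of the 26 tested members, so results are also given without these arrays where a call depends on them.

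Of the 26 tested members 13 fell in dysplasia relative to transgenic tissue, and 0 rose (limma, adjusted p under 0.05). At an unadjusted p under 0.05 the counts were 15 and 1. Among all 21658 probe sets tested, 17.9% fell and 15.3% rose in this comparison. The members were chosen with earlier results of these data known, so these shares give a scale and no test of the list. In 7 members all dysplasia arrays lay below all transgenic arrays, and in 0 above them, where 13.6% and 11.8% of all probe sets did so. By cell type, 6 of 7 NK members and 6 of 7 B members fell, but only 1 of 11 T members. The median log2 change, on the scale of log2(signal + 50), was -0.67 for NK members, -0.87 for B members and -0.04 for T members, against -0.01 over all probe sets. Whether the cell types differ from each other was not tested, and 8 of 14 tested further T cell genes fell too (given below). As the methods give both groups the same mice, the array number was also used as a block, although the arrays numbered 4 differ in Xist. With this block 16 members fell (Eomes, Blk and Ltb in addition) and 1 rose (Icos). With no block, the number that fell was 12 without transgenic 2, and 13 without dysplasia 4. In tissue cut from sections, fewer cells of a type and less RNA per cell cannot be told apart. A limit on mean signal favours genes that are bright in some group, and 5 tested members (Cd8a, Klrk1, Gzmb, Eomes and Tbx21) had a dysplasia mean under 100, so they passed through the other groups.

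**Figure D1:**
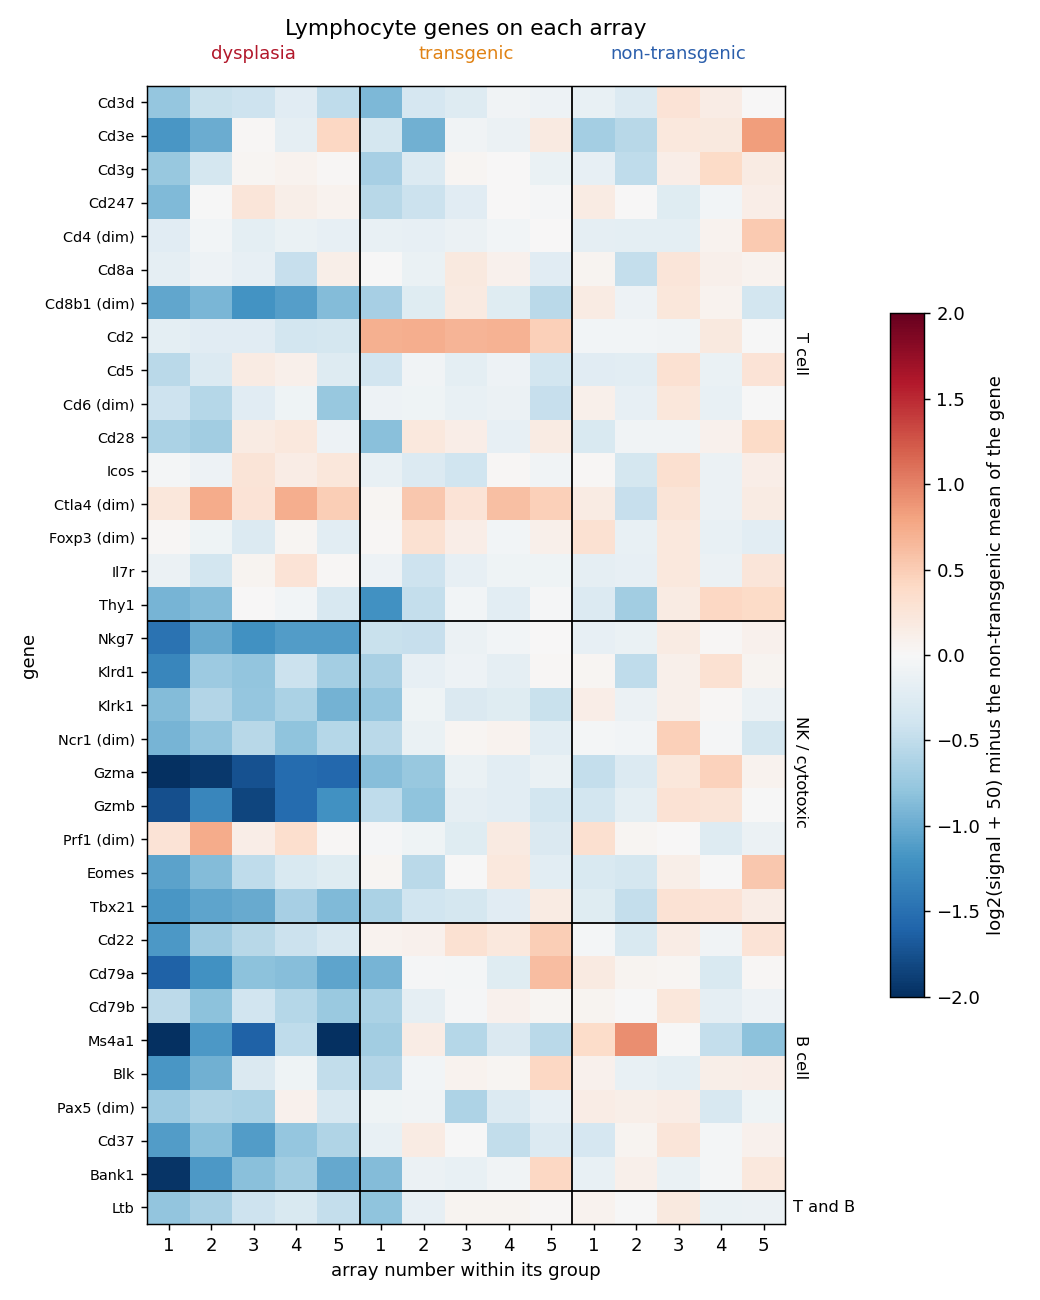
Signal of the 34 measured lymphocyte genes on each of the 15 arrays, as the difference of log2(signal + 50) from the non-transgenic mean of the same gene (blue lower, red higher). Rows are genes ordered by cell type, columns are arrays, and "dim" marks the 8 genes under the signal limit. The NK and B rows are mostly blue across the 5 dysplasia arrays, while T rows are blue mainly on dysplasia 1 and 2 and Cd2 is red on the 5 transgenic arrays.

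Gzma had the largest fall of the tested members in both comparisons with dysplasia on the scale of log2(signal + 50), whereas by the ratio of means Gzmb fell further against non-transgenic tissue (0.256 against 0.264). It encodes granzyme A, a trypsin-like protease of NK and cytotoxic T cells. Its signal was 340.2, 439, 509, 588 and 579.5 on dysplasia 1 to 5, 987, 1048, 1643, 1568 and 1647 on transgenic 1 to 5 and 1290.5, 1489, 2132, 2505 and 1903 on non-transgenic 1 to 5. Every dysplasia array lay below every control array. The mean fell to 0.356 of the transgenic mean (log2 change -1.39, standard error 0.19, adjusted p = 0.000193, limma) and to 0.264 of the non-transgenic mean (log2 change -1.81, standard error 0.19, adjusted p = 2.17e-05, limma).

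Gzmb encodes granzyme B, which cleaves caspases in the target cell. It measured 69.8, 115, 63.9, 89.9 and 126 in dysplasia, 238, 182, 312, 300.2 and 268 in transgenic tissue and 267, 306, 450.2, 439 and 357 in non-transgenic tissue. Again dysplasia did not overlap with either control group, and 3 of its 5 arrays were under 100, near the background of the array. The log2 change was -1.12 against transgenic (standard error 0.16, adjusted p = 0.000263, limma) and -1.53 against non-transgenic tissue (standard error 0.17, adjusted p = 2.27e-05, limma).

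Nkg7, a membrane protein of cytotoxic granules, was the steadiest NK member, with a coefficient of variation of 15.1% over the dysplasia arrays. Its values were 127, 194, 163, 177 and 177 in dysplasia against 312, 308, 401, 423 and 446 in transgenic tissue and 390.2, 399, 501, 451 and 474 in non-transgenic tissue. The highest dysplasia array thus stayed below the lowest control array. The mean fell to 0.444 of the transgenic mean (log2 change -0.97, standard error 0.13, adjusted p = 0.000157, limma).

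Promoter sequence of these 3 genes is shown because they fell together, with 1 B member (Cd79a) and 1 T member (Cd3g) beside them. Each line gives the 250 bases upstream of the start site, 5′ to 3′ on the strand of the gene, as RefSeq lists them on GRCm38.p6, and capitals mark matches to any of the motifs searched on both strands.
Gzma, chr13:113100982-113101231, minus strand: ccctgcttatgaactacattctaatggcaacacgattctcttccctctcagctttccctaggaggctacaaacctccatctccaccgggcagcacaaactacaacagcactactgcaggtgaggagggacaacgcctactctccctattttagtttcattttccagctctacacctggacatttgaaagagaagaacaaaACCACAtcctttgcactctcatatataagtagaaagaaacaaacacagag
Gzmb, chr14:56262335-56262584, minus strand: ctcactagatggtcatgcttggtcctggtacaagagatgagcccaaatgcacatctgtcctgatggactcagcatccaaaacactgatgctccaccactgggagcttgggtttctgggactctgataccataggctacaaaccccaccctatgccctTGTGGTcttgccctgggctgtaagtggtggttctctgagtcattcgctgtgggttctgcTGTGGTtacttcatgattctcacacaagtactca
Nkg7, chr7:43436888-43437137, plus strand: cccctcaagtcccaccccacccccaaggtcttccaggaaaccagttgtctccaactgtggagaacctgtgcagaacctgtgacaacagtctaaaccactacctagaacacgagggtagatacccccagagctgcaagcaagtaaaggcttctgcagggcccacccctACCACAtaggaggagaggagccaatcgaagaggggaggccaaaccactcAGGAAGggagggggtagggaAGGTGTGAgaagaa
Cd79a, chr7:24897247-24897496, plus strand: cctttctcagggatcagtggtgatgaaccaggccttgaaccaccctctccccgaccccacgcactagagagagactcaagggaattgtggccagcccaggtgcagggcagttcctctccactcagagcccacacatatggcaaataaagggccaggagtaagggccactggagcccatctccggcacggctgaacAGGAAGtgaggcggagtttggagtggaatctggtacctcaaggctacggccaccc
Cd3g, chr9:44980432-44980681, minus strand: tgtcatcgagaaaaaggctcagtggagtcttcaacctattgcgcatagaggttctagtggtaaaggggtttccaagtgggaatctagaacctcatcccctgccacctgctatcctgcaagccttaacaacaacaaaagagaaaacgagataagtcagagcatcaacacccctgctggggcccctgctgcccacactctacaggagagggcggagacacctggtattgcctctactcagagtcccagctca
The motifs were TGTGGT (core of Runx sites), AGGAAG (core of many Ets sites), AGGTGTGA (T-box), ATGCAAAT (octamer) and the Ebf motif. RefSeq promoters were at hand for 25 of the 36 members and for 27025 genes in all. TGTGGT was found in 7 of 9 NK promoters (Gzma, Gzmb, Klrb1c, Klrk1, Ncr1, Nkg7 and Prf1), in 1 of 10 T promoters (Lck), in 0 of 5 B promoters and in 14.2% of all. The Runx match begins at position -50 of Gzma, at -93 and -34 of Gzmb and at -83 of Nkg7. AGGAAG was found in 7 of 10 T, 4 of 9 NK and 3 of 5 B promoters, against 29.2% of all. The T-box motif was in Nkg7 alone among the T, NK and B members (1.14% of all), the Ebf motif in Cd22 alone (0.788%), and the octamer in 0 of these promoters (1.61%). Nkg7 carries its T-box match at -14 and an Ets match at -34, and the Cd3g window holds none of the 5 motifs. A match is a description of these letters and shows no binding.

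Tbx21 and Eomes encode the T-box factors that direct the NK and cytotoxic programme. Tbx21 measured 74.1, 83.6, 88.9, 125 and 101 in dysplasia, 129, 161, 168, 189 and 260.3 in transgenic tissue and 186, 149, 291, 287 and 258 in non-transgenic tissue. No dysplasia array reached the control arrays, although dysplasia 4 came within a few units of transgenic 1. Tbx21 fell in both comparisons (log2 change -0.67 and -0.96, adjusted p = 0.00505 and 0.000651, limma). Eomes had 85.1 ± 32.1 in dysplasia, 139 ± 35.3 in transgenic tissue and 155 ± 54.2 (mean ± SD, n = 5) in non-transgenic tissue. Its groups overlapped, and it passed the test against non-transgenic tissue (log2 change -0.60, standard error 0.21, adjusted p = 0.0345, limma) but not against transgenic tissue (adjusted p = 0.064). The call against non-transgenic tissue was lost under 10 alternatives, up to an adjusted p of 0.146, which included leaving out dysplasia 1, 2 or 3 or non-transgenic 3, 4 or 5. Against transgenic tissue the adjusted p was 0.0171 with the array number as a block, 0.0418 without dysplasia 5 and 0.0286 without transgenic 2.

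Among the NK receptors, Klrd1 (CD94, the partner of the NKG2 receptors) fell from 716 ± 122 in transgenic to 469 ± 106 in dysplasia (log2 change -0.57, standard error 0.17, adjusted p = 0.0226, limma). Klrk1 (NKG2D, which binds stress ligands on target cells) had 65.1 ± 12.4 in dysplasia, 103 ± 26.3 in transgenic tissue and 145 ± 16.1 in non-transgenic tissue. Its fall against non-transgenic tissue was without overlap (log2 change -0.76, standard error 0.10, adjusted p = 9.42e-05, limma), whereas the call against transgenic tissue (adjusted p = 0.0426) was lost under 11 of 22 alternatives, among them those without dysplasia 1, 3 or 5 or transgenic 2, 3, 4 or 5, up to an adjusted p of 0.0986. That of Klrd1 was lost when transgenic 3, 4 or 5 was left out (adjusted p at most 0.0548).

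Ncr1 and Prf1 were too dim to be tested. Ncr1 (NKp46, an activating receptor largely restricted to NK cells) ranged from 13.0 to 31.8 in dysplasia, from 32.7 to 76.8 in transgenic tissue and from 44.0 to 118 in non-transgenic tissue, so dysplasia lay below both control groups. Prf1 (perforin, the pore-forming protein) averaged 119 in dysplasia, 77.8 in transgenic tissue and 86.5 in non-transgenic tissue. A second Prf1 probe set ran the other way, with means of 30.2, 68.7 and 94.3, so these data give perforin no direction.

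**Figure D2:**
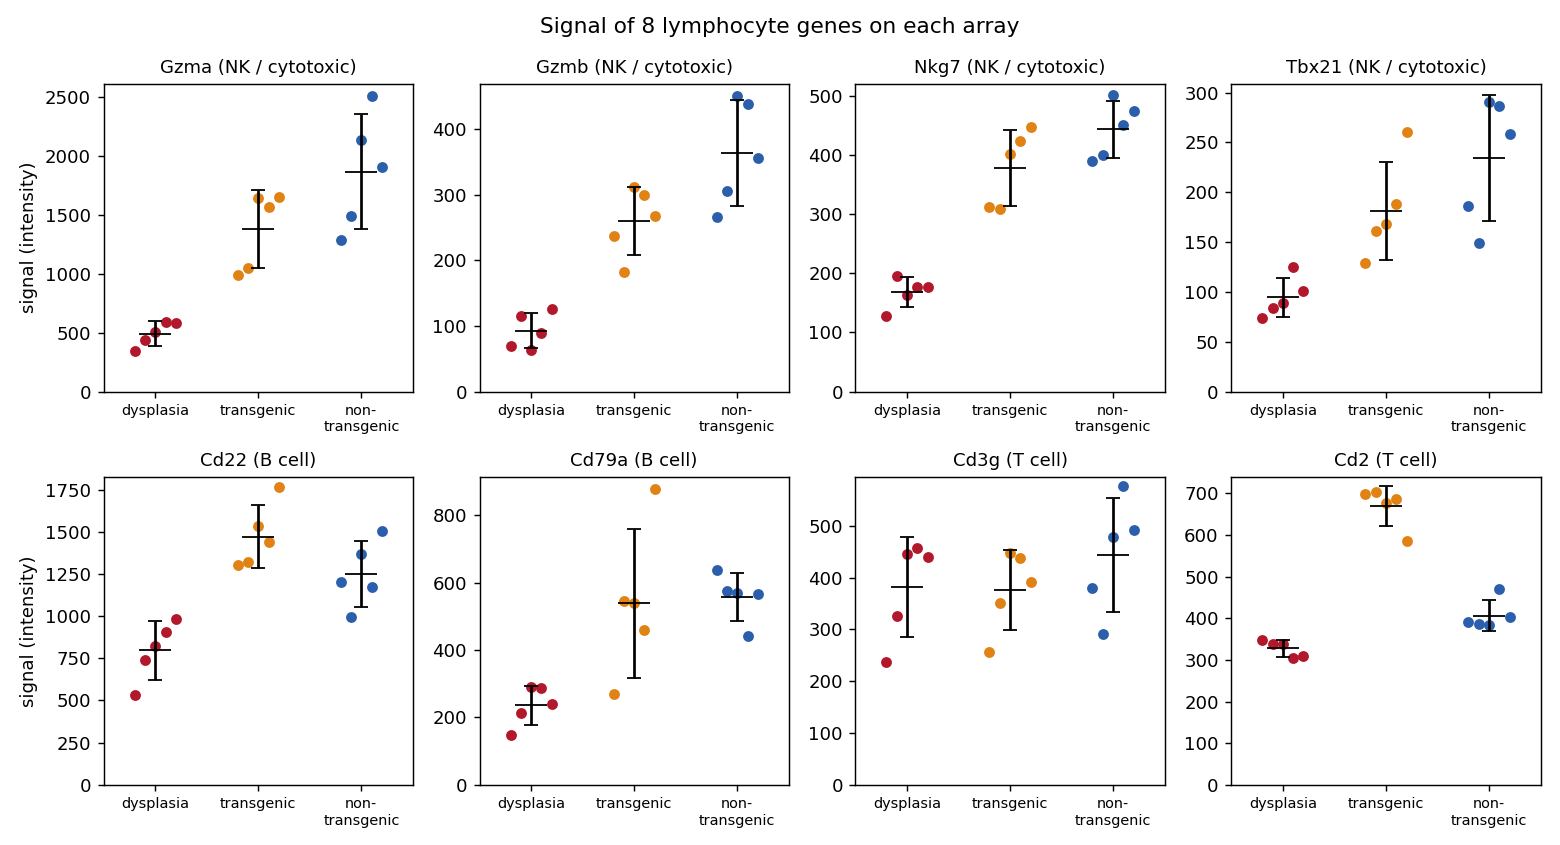
Signal (linear intensity, axes from 0) of 8 lymphocyte genes on each array, with points for arrays, horizontal dashes for group means and bars for SD (n = 5). In Gzma, Gzmb, Nkg7, Tbx21 and Cd22 the 5 dysplasia points lie below all transgenic points, in Cd79a they reach the lowest transgenic array, in Cd3g the groups overlap, and in Cd2 the transgenic points stand above both other groups.

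The B cell members were lower as well. Cd22, an inhibitory co-receptor of the B cell receptor, measured 529.8, 740.3, 823, 909 and 982 in dysplasia, 1302, 1321, 1533, 1442 and 1764 in transgenic tissue and 1201, 998, 1370.5, 1171 and 1508 in non-transgenic tissue. All dysplasia arrays lay under all control arrays, with dysplasia 5 close to non-transgenic 2. Its mean was 0.541 of the transgenic mean (log2 change -0.87, standard error 0.16, adjusted p = 0.00128, limma). A second Cd22 probe set, under the signal limit, averaged 46.0 in dysplasia, 97.1 in transgenic tissue and 97.5 in non-transgenic tissue.

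Cd79a and Cd79b encode the signalling chains of the B cell receptor. Cd79a gave 148, 212, 291, 286 and 239.9 in dysplasia, 268, 546, 539, 460.0 and 877 in transgenic tissue and 638, 575, 570.2, 441 and 566 in non-transgenic tissue. Only transgenic 1 came down to the dysplasia values. The log2 change was -0.99 against transgenic (standard error 0.25, adjusted p = 0.0105, limma) and -1.11 against non-transgenic tissue (standard error 0.15, adjusted p = 0.00015, limma). Cd79b changed less, from 799.9 ± 154 to 562 ± 74.1 (log2 change -0.46, standard error 0.15, adjusted p = 0.031, limma), and this call was lost when any 1 of 7 arrays (dysplasia 2, 4 and 5, transgenic 2 to 5) was left out (adjusted p at most 0.0804).

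Ms4a1 encodes CD20, a membrane protein of mature B cells. It was the most variable B member in dysplasia and in non-transgenic tissue (coefficients of variation 58.2% and 50.3%), with 233, 493, 342, 802 and 213 in dysplasia, 695, 1292, 762, 941 and 781 in transgenic tissue and 1514, 2248, 1148, 818 and 635 in non-transgenic tissue. Dysplasia 4 lay within the range of both control groups and the other 4 dysplasia arrays lay below every control array. Ms4a1 fell in both comparisons (log2 change -1.13 and -1.51, adjusted p = 0.0141 and 0.00746, limma), and its second tested probe set fell too (-1.17 and -1.52 on the log2 scale, adjusted p = 0.0132 and 9.72e-05, limma).

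Bank1, a scaffold of B cell receptor signalling, fell from 477 ± 158 to 218 ± 77.5 (log2 change -0.98, standard error 0.27, adjusted p = 0.0143, limma). Cd37, a tetraspanin of B cells that other leukocytes also carry, fell from 337 ± 67.3 to 181 ± 36.2 without overlap of the groups (log2 change -0.74, standard error 0.15, adjusted p = 0.00241, limma). A dimmer Cd37 probe set did not pass (adjusted p = 0.0804). Blk, a Src family kinase of B cells, had 211 ± 78.8 in dysplasia and 334 ± 90.2 in transgenic tissue and did not pass (adjusted p = 0.0795), whereas the array number as a block brought it to 0.00527, leaving out dysplasia 4 to 0.0385 and leaving out transgenic 1 to 0.0297. Pax5, the factor that fixes B cell identity, stayed under the limit in all groups, with means of 17.5, 26.3 and 40.1 for dysplasia, transgenic and non-transgenic samples.

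The T cell members gave a different picture in their calls, with 1 of 11 lower than in transgenic tissue, where 17.9% of all probe sets fell. Overlap of the groups set them apart less. Dysplasia lay wholly below transgenic tissue in 1 of 11 T, 2 of 7 B and 4 of 7 NK members, and in 13.6% of all probe sets. The low count of calls holds for the tested members and not for the whole of a further list. Of 14 tested further T cell genes 8 fell against transgenic tissue, 1 rose and 5 were not called (median log2 change -0.60, given below). Cd3g, a chain of the T cell receptor complex, measured 236, 327, 447, 457 and 441 in dysplasia and 256, 350.3, 447, 438 and 392 in transgenic tissue. The group means were 381 and 377, and the 95% interval of the log2 change ran from -0.41 to 0.41. For Cd3d, another chain, it ran from -0.51 to 0.22, and for Cd3e, the third, from -0.81 to 0.57. Cd247, the zeta chain, had an interval from -0.30 to 0.61. Changes of the size seen in Gzma lie outside the intervals of all 4 chains, but a fall or rise of moderate size does not.

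T and NK members had their lowest medians on arrays 1 and 2 of every group. Relative to the non-transgenic mean of each gene, the median of the 11 T members was -0.63 on dysplasia 1 and -0.36 on dysplasia 2, but 0.04, 0.07 and 0.02 on dysplasia 3, 4 and 5. For NK members the same medians were -1.31, -1.01, -1.002, -0.67 and -0.94 and for B members -1.16, -0.97, -0.83, -0.57 and -0.73. Thus NK and B members were down on all 5 dysplasia arrays, while the T medians were below 0 on dysplasia 1 and 2 only, the arrays with the highest actin ratios. All 3 cell types had their lowest medians in dysplasia on these arrays. Transgenic 1 and 2 had the lowest T medians (-0.38 and -0.27) and NK medians (-0.64 and -0.455) of their group, with actin ratios of 46.3% and 63.4%, the highest there. Non-transgenic 1 and 2, with ratios of 54.6% and 72.8%, likewise had the lowest T medians (-0.17 and -0.28) and NK medians (-0.235 and -0.28). The B medians were -0.63 and -0.02 on transgenic 1 and 2, and 0.06 and 0.05 on non-transgenic 1 and 2. Dysplasia also had the highest median actin ratio of the 3 groups. The part of RNA integrity in these values was not tested.

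The co-receptor genes were close to background. Cd8a had 95.9 ± 20.5 in dysplasia and 111 ± 19.3 in transgenic tissue (adjusted p = 0.431, limma). The Cd8a probe sets not used were under the signal limit and had their lowest means in dysplasia. These were 80, 60, 43.5 and 10.5, against 94.7, 94.9, 50.3 and 24.4 in transgenic tissue. Cd4 was at 12.9, 15.5 and 21.2 in the 3 groups, near the background of the arrays. Cd8b1, the second chain of CD8, was under the limit but did not overlap, with 29.4 to 48.8 in dysplasia, 64.3 to 154 in transgenic tissue and 90.2 to 161 in non-transgenic tissue.

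Of the co-stimulatory receptors, Cd28 had a log2 change of -0.12 (95% interval -0.65 to 0.42) and Icos, which is induced on activated T cells, one of 0.27 (adjusted p = 0.0853, limma). A second Cd28 probe set, under the signal limit, averaged 66.8 in dysplasia, 91.4 in transgenic tissue and 125 in non-transgenic tissue. The other Icos probe sets had log2 changes of 0.34 and 0.44 against transgenic tissue (adjusted p = 0.271 and 0.205, limma). Icos was the one member higher in dysplasia with the array number as a block (adjusted p = 0.0458), and its means were 229, 181 and 213 in dysplasia, transgenic and non-transgenic tissue. Il7r, the receptor of the survival cytokine IL-7, ran from 696 to 1115 in dysplasia and from 674 to 862 in transgenic tissue. Cd5, a brake on receptor signalling, had 119 ± 33.6 and 109.8 ± 15.9. Thy1, which fibroblasts also carry, had 682 ± 215 and 704 ± 217. In the fit without a block these 5 genes did not pass the test against transgenic tissue.

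The regulatory genes Ctla4 and Foxp3 and the adhesion receptor Cd6 were under the limit. Ctla4 averaged 70.5, 61.7 and 36.3 in dysplasia, transgenic and non-transgenic tissue. Foxp3 averaged 29.8, 41.8 and 36.1, and Cd6 69.8, 89.6 and 108. All 3 were dim in every group.

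Cd2 was the exception among the T members. It encodes an adhesion receptor that mouse T, NK and B cells carry. Its signal was 349, 339, 339, 305 and 309 in dysplasia, 698, 704, 678, 687 and 586 in transgenic tissue and 390.2, 387, 383, 471 and 402 in non-transgenic tissue. The 3 groups did not overlap, and the order was transgenic above non-transgenic above dysplasia. Cd2 fell in dysplasia to 0.489 of the transgenic mean (log2 change -0.93, standard error 0.08, adjusted p = 1.54e-05, limma). It was also the one member called in transgenic against non-transgenic tissue, 1.65-fold higher (log2 change 0.66, standard error 0.09, adjusted p = 0.00555, limma), although this call was lost without the arrays numbered 1 (log2 change 0.63, adjusted p = 0.0521). The fall of Cd2 against non-transgenic tissue was smaller (log2 change -0.27, standard error 0.08, adjusted p = 0.0217, limma) and was lost under 4 of 23 alternatives, those without dysplasia 5 or non-transgenic 4 among them (adjusted p at most 0.0901).

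Ltb, the lymphotoxin chain made by lymphocytes that shapes lymphoid tissue, had 654, 724, 863, 941 and 825 in dysplasia, 647, 1043, 1217, 1220.3 and 1187 in transgenic tissue and 1229, 1157, 1341, 1067 and 1068 in non-transgenic tissue. Transgenic 1 lay below every dysplasia array, and the other transgenic arrays lay above them. The test against transgenic tissue gave an adjusted p of 0.139 (limma), 0.0126 once the array number was blocked and 0.0063 without transgenic 1. Against non-transgenic tissue Ltb fell without overlap (log2 change -0.53, standard error 0.11, adjusted p = 0.00275, limma).

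**Figure D3:**
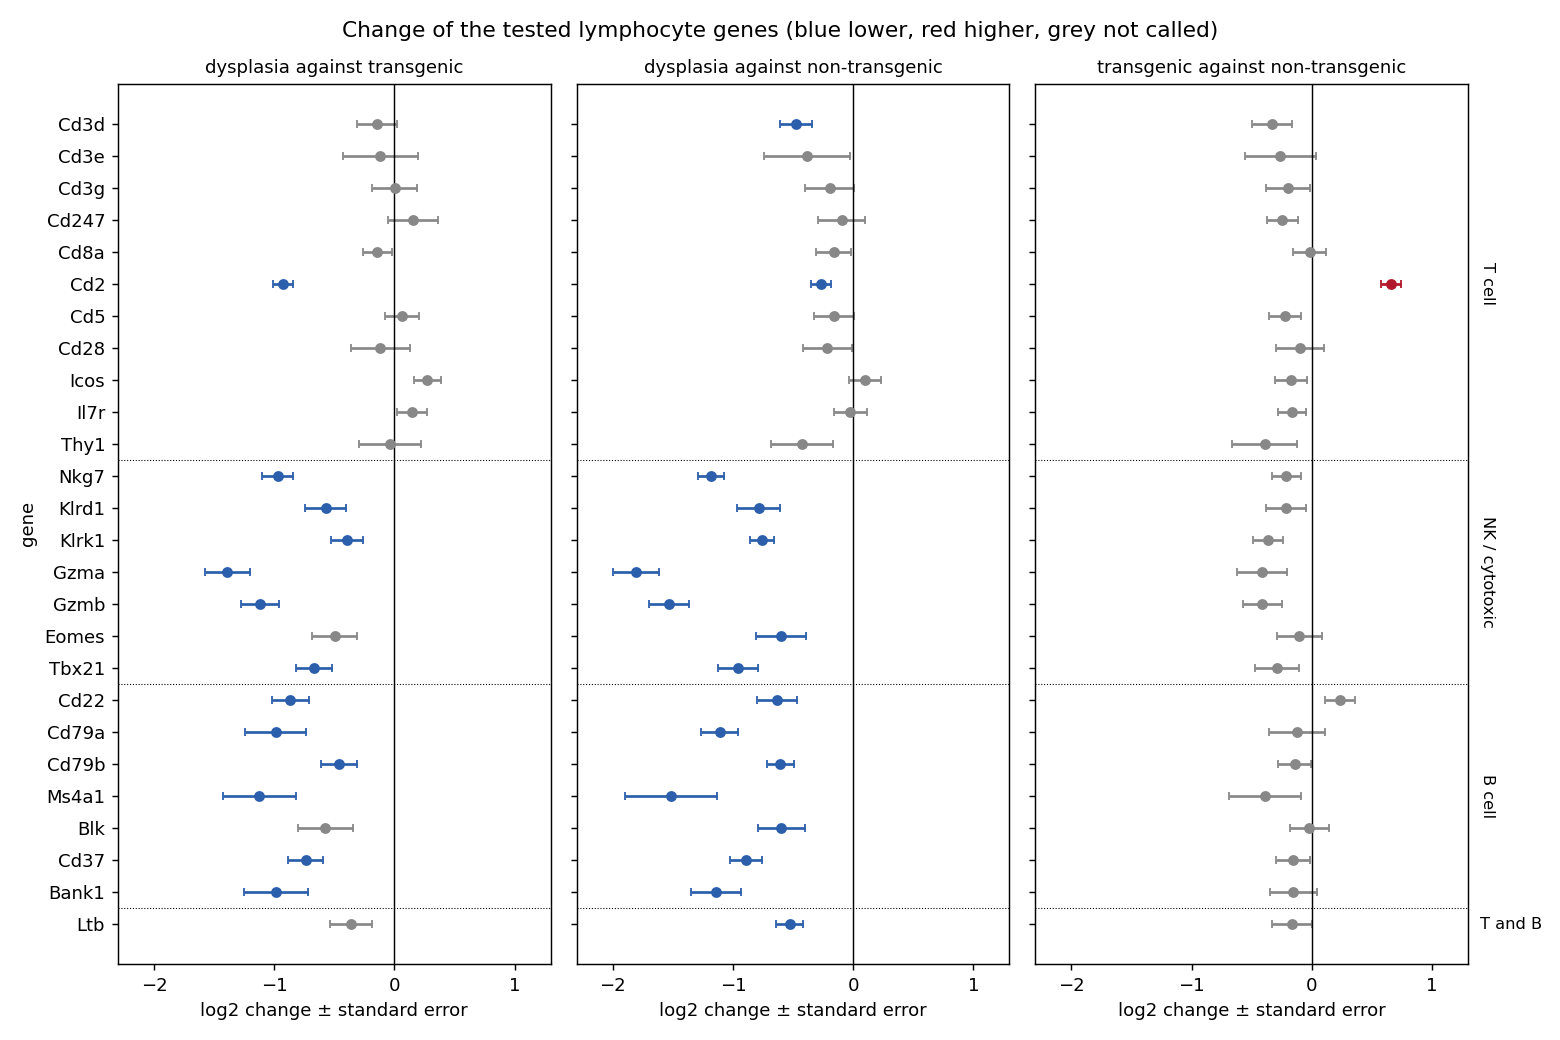
Log2 change of the 26 tested lymphocyte genes in the 3 comparisons, with the standard error as bars (n = 5 arrays per group) and dotted lines between cell types. NK and B genes lie left of 0 in both comparisons with dysplasia, T genes apart from Cd2 lie near 0 against transgenic tissue, and Cd2 alone passed the test in the third comparison.

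Against non-transgenic tissue 17 of the 26 tested members fell in dysplasia and 0 rose, also at an unadjusted p under 0.05, where 23.3% of all probe sets fell and 20.7% rose. All 7 NK members, all 7 B members and Ltb were among them, with Cd2 and Cd3d of the T members. The medians were -0.96 for NK, -0.89 for B and -0.20 for T members, against -0.03 over all probe sets. The groups did not overlap in 12 members, all lower in dysplasia, where 17.5% of all probe sets lay wholly lower and 15.8% wholly higher. Cd3d went from 576 ± 94.0 to 399 ± 61.2 (log2 change -0.48, standard error 0.13, adjusted p = 0.0122, limma). Both comparisons share the dysplasia arrays. By Xist 4 of the 5 non-transgenic arrays were female, and with Xist as a covariate Cd2, Cd3d, Eomes and Blk were no longer called, which left 13 of 26. Blk also lost its call under 7 further alternatives, among them those without dysplasia 1 or 2 or non-transgenic 1, 4 or 5 (adjusted p at most 0.107 over all 8).

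Few members were called between transgenic and non-transgenic tissue, although 24 of 26 had a negative log2 change in transgenic tissue (median -0.19). Of the 26 members 0 fell (2 at an unadjusted p under 0.05, Klrk1 and Gzmb) and 1 rose (Cd2), where 0.0831% of all probe sets fell and 1.17% rose. Apart from Cd2, which lay wholly higher as 3.23% of all probe sets did, the groups overlapped in every tested member (1.08% of all probe sets lay wholly lower). The medians were -0.29 for NK, -0.14 for B and -0.20 for T members, against -0.02 over all probe sets. Thus all 7 NK members had their highest mean in non-transgenic and their lowest in dysplastic tissue. The same order held in 5 of 7 B members and in 5 of 11 T members. The other T members had other orders, so that T members had 4 different orders of the groups.

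The granzymes were then followed as a whole family. Of 10 genes 3 were bright enough to be tested, Gzma, Gzmb and Gzme. Gzme, a member of the granzyme cluster that Gzmb belongs to, went the opposite way. It measured 2040.1, 1194, 3283, 1810.3 and 1689.9 in dysplasia, 54.0, 86.9, 78.5, 41.6 and 63.7 in transgenic tissue and 14.2, 6.85, 1.94, 9.77 and 11.03 in non-transgenic tissue. Every dysplasia array lay above every control array. The log2 change against transgenic tissue was 4.10 (adjusted p = 8.59e-07, limma). All 10 control arrays were under 100 and near background, so Gzme met the signal limit through dysplasia alone, the size of this change is not firm and the control groups are not compared. Cross-hybridisation among the closely related granzymes was not tested.

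The other 7 granzymes stayed under the limit. Gzmk, found in memory T cells, averaged 80.0 in dysplasia, 74.4 in transgenic tissue and 143 in non-transgenic tissue. Gzmm, a granzyme of NK cells, averaged 24.6, 37.5 and 66.5. For Gzmc, Gzmd, Gzmf, Gzmg and Gzmn the highest group mean was 19.8. Among the genes of the Gzmb cluster, Gzmb and Gzme were therefore the measured ones.

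**Figure D4:**
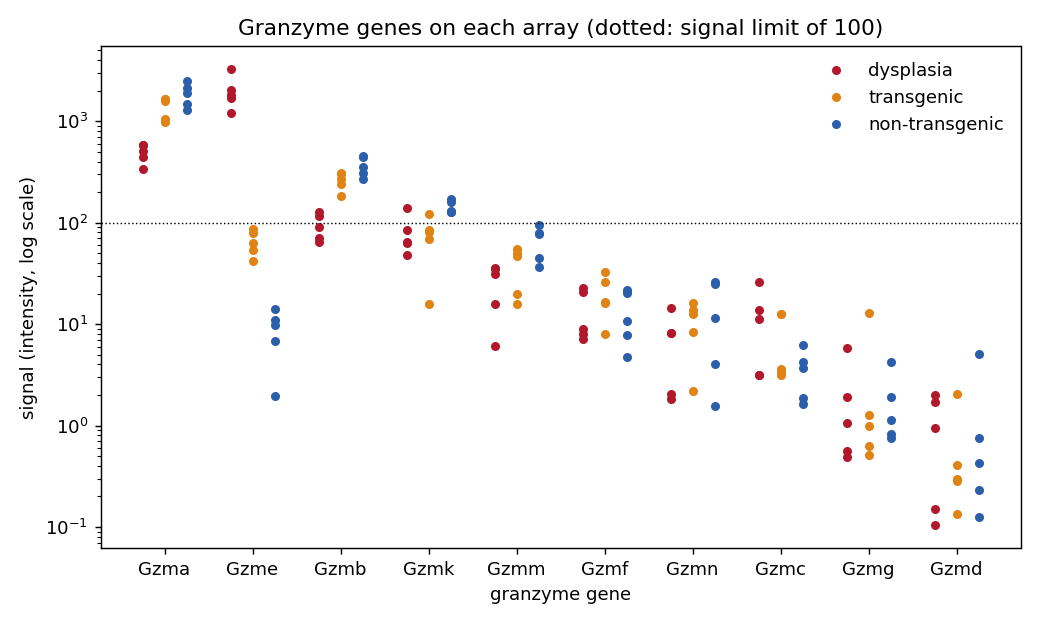
Signal of 10 granzyme genes on each array (linear intensity on a log axis, ordered by mean, the dotted line at the signal limit of 100). Gzma and Gzmb are lower in the 5 dysplasia arrays than in all control arrays, Gzme is between 1194 and 3283 in dysplasia and under 100 in the controls, and levels of different genes are not comparable because each rests on its own probe set.

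Further genes of each lineage, from fixed lists without the members above, were set beside them. Of 14 tested further T cell genes 8 fell against transgenic tissue and 1 rose (median log2 change -0.60). Over all probe sets 17.9% fell and 15.3% rose, so the rise of 1 gene (7.14%) is no more than that share. Prkcq, the protein kinase C isoform of the T cell synapse, had 109 ± 40.6 in dysplasia and 395 ± 77.2 in transgenic tissue (log2 change -1.51, adjusted p = 0.000134, limma). Lef1 and Satb1, nuclear factors of naive T cells, fell by 0.83 and 0.87 on the log2 scale. S1pr1, the receptor that guides lymphocytes out of tissue and that endothelium carries too, fell by 1.54. Zap70, Lat, Lcp2, Skap1 and Bcl11b were not called (log2 changes 0.28, -0.17, -0.27, -0.23 and -0.04, adjusted p at least 0.112, limma). Whether the falls in this list arose in T cells was not tested. Cxcr6, a homing receptor of tissue-resident T cells, was the gene that rose, named after its value was seen, with 225 ± 43.2 in dysplasia and 98.2 ± 41.2 in transgenic tissue (log2 change 0.92, adjusted p = 0.00337, limma).

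Of 10 tested further NK and innate lymphoid genes 7 fell and 0 rose (median -0.50), where 17.9% of all probe sets fell and 15.3% rose. Ccl5, a chemokine of cytotoxic lymphocytes, had 906 ± 284 in dysplasia and 2166 ± 391 in transgenic tissue (log2 change -1.25, adjusted p = 0.000868, limma). Il2rb, the IL-2 and IL-15 receptor chain that NK cells depend on, fell by 0.59 on the log2 scale. The NK receptors Klre1 and Klra8, also among the 7, fell by 0.77 and 1.03 on this scale. Klre1 averaged 43.65 in dysplasia, 109.8 in transgenic tissue and 159.9 in non-transgenic tissue, and Klra8 averaged 44.03, 152 and 160.7. Both dysplasia means lie under the signal limit and near background. These receptors therefore passed the limit through the other groups, and the size of their falls is not firm.

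Of 20 tested further B and plasma cell genes 8 fell and 3 rose (median -0.47). Over all probe sets 17.9% fell and 15.3% rose, and 3 of 20 is close to the share that rose. Among the 8 were Btk, the kinase behind the B cell receptor (log2 change -0.74, adjusted p = 0.000158), and Ebf1, an early B cell factor (log2 change -0.90, adjusted p = 0.00102), with Prdm1, which drives plasma cells but is found in other cells too (log2 change -1.18, adjusted p = 0.000678). The 3 that rose were Sdc1, a plasma cell marker also carried by epithelium (2.40-fold), Igha, the IgA heavy chain (1.31-fold), and Jchain, which joins IgA (1.90-fold). Igha and Jchain, named after their values were seen, overlapped between the groups and passed narrowly (adjusted p = 0.0349 and 0.0477, limma).

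Genes shared by all leukocytes fell as well, 16 of 20 (median -0.53), among them Itgal, a chain of the adhesion receptor LFA-1, at 1145 ± 238 in dysplasia and 2127 ± 255 in transgenic tissue (log2 change -0.88, adjusted p = 0.000711, limma). This list includes Cd37, and 17.9% of all probe sets fell in this comparison. Against non-transgenic tissue 9 of the 20 fell and 1 rose, where 23.3% of all probe sets fell and 20.7% rose.

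Markers of some other cell types fell along with the NK and B members, and those of others did not. All 14 endothelial markers fell against transgenic tissue (median -1.65), with a summed signal of 24035 to 35640.3 over the dysplasia arrays and 67017 to 93367 over the transgenic arrays. Of 6 platelet and red cell markers 5 fell (summed 1789 to 3237 against 6533 to 8918), as did 3 of 4 neutrophil markers (summed 1494 to 2405 against 4161 to 9335). Macrophage markers went both ways, 7 lower and 3 higher of 13. Over all probe sets 17.9% fell and 15.3% rose in this comparison. The summed signal of the 9 measured NK members was 1143 to 1907 in dysplasia and 2512 to 3789 in transgenic tissue, that of the 8 B members 1871 to 3417 and 3642 to 5813, and that of the 16 T members 3082 to 4714 and 3573 to 4779.7. The part that blood or vessels within the cut tissue have in the lymphocyte values was not tested.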

How the data were processed

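Intensity values were deposited by the authors as 1 signal per probe set, made in GCOS from each array and scaled to a target of 500 (no version is given in the sources used here). The mean with 2% trimmed from either end was checked to be 500 on all 15 arrays. Control probe sets (64) were left out and genes named from the platform annotation (34945 probe sets with 1 symbol, 932 with several, 9160 with none). Signals entered as log2(signal + 50) after a limit on the mean signal of 100, which kept 21658 probe sets of 11603 genes. Only the 10 arrays of the groups compared entered a fit, unpaired after the methods, with limma 3.58.1 in R 4.3.3, adjustment over all probe sets by the method of Benjamini and Hochberg, and a threshold of 0.05. limma stands in for the SAM test of the methods, which was not run. The scripts were tested on simulated data.

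Every member is named. Of each further list at most 4 called genes with the smallest p in dysplasia against transgenic are named, or all where 5 or fewer are called. The members and lists were chosen with earlier results of these data known.

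The methods say that dysplasia and transgenic samples share their 5 mice, but whether equal numbers mean 1 mouse is not said. The arrays numbered 4 differed in Xist (9674 in dysplasia, 85 in transgenic tissue) and had the lowest correlation (0.219). Deviations from the group means of same-numbered dysplasia and transgenic arrays correlated in all 5 pairs (0.219 to 0.773, mean 0.612, against -0.15 for different numbers), so a fit with the number as a block is given where it changes a call. Transgenic and non-transgenic arrays also passed this check (0.135 to 0.793), though from different mice, and the block changed no call there. Alternatives varied offset, normalization, signal limit, probe set, covariates and arrays, and that without the arrays numbered 1 was chosen after seeing the data.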

Additional observations from a re-analysis of the deposited data

Results flagged for a closer look

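In the 78 groups of 5 arrays that the 26 tested members form, 6 held an array far from the other 4, where chance alone flags about 1 in 20 groups. Cd247 was 108.7 on dysplasia 1, with 241.8 to 296.5 on the other dysplasia arrays. Cd8a was 66.7 on non-transgenic 2, with 119 to 141 on the others. Cd2 was 585.5 on transgenic 5, with 677.6 to 704.5 on the others, and 471.1 on non-transgenic 4, with 383.2 to 402.2 on the others. Il7r was 674.5 on transgenic 2, the array with conflicting labels, with 810.5 to 861.8 on the others. Ltb was 646.5 on transgenic 1, with 1043 to 1220.3 on the others. Of these arrays dysplasia 1 and non-transgenic 2 had actin 5′ to 3′ ratios of 69.9% and 72.8%, and the part of RNA integrity in the flagged values was not tested.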

How the results depend on the processing

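Relative to transgenic tissue, the number of members called lower was 13 and ran from 11 to 16 over the other settings and from 10 to 15 when 1 array was left out. Relative to non-transgenic tissue it was 17, with 13 to 19 and 14 to 17. No called member changed direction under these alternatives. The number called higher in dysplasia went from 0 to 1 with the replicate block and with the actin ratio as a covariate (Icos, against transgenic) and from 0 to 1 without the signal limit (Ctla4, against non-transgenic). Cd2 as the 1 member higher in transgenic than in non-transgenic tissue went to 0 without the arrays numbered 1. In dysplasia against non-transgenic tissue, where the same number does not pair the arrays (correlation -0.00366 for number 4, and 5 of 10 arrays closest to their own number), the replicate block called 19 members lower, Cd3e and Thy1 among them. The block changed no other call than those given.

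Changes of members that were not called reversed in 19 of 47 results (log2 scale). With Xist as a covariate, Cd28, Cd5 and Il7r became 0.016, 0.020 and 0.091 in dysplasia against non-transgenic, Cd3g and Cd5 -0.072 and -0.001 in dysplasia against transgenic, and Cd28, Cd37, Cd3e, Cd8a and Eomes 0.127, 0.044, 0.079, 0.056 and 0.050 in transgenic against non-transgenic tissue. With the actin ratio, Cd3e and Thy1 became 0.123 and 0.104 (against transgenic) and Il7r 0.049 (against non-transgenic). Quantile normalization turned Blk and Cd8a to 0.005 and 0.033 (transgenic against non-transgenic), the same total signal turned Cd3g to -0.017, and the other probe set turned Il7r to -0.029. Without the arrays numbered 1, Cd3e became 0.059, Cd247 0.145 (against non-transgenic), and Blk, Cd28, Cd79a and Ltb 0.139, 0.006, 0.126 and 0.013 (transgenic against non-transgenic). Leaving out 1 array gave, against transgenic, Cd28 -0.299 to 0.005, Cd3e -0.316 to 0.080, Cd3g -0.110 to 0.143, Cd5 -0.018 to 0.159 and Thy1 -0.241 to 0.087. Against non-transgenic it gave Cd247 -0.177 to 0.104 and Il7r -0.097 to 0.063, and for transgenic against non-transgenic Bank1 -0.298 to 0.023, Blk -0.131 to 0.118, Cd28 -0.177 to 0.084, Cd79a -0.307 to 0.079, Cd8a -0.137 to 0.041 and Eomes -0.192 to 0.031. The cause was not tested. Dim members limit what these arrays can show.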

Other observations

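Signals that draw lymphocytes in or keep them alive went both ways in dysplasia relative to transgenic tissue, with 3 lower and 3 higher of 12 tested, where 17.9% of all probe sets fell and 15.3% rose, so the counts say little about the list and the genes are given by their values. Cxcl12, a chemokine that retains lymphocytes in tissue, had 648 ± 133 in dysplasia and 2310.0 ± 176 in transgenic tissue (log2 change -1.77, adjusted p = 3.63e-06, limma). Tnfsf13b (BAFF, a survival factor of B cells) had 629.9 ± 66.1 in dysplasia and 1301 ± 114 in transgenic tissue (log2 change -0.99, adjusted p = 2.9e-05, limma). Both were lower on every dysplasia array than on every transgenic array. Il7, the survival cytokine of T cells, was higher, with 412 ± 48.0 in dysplasia and 241 ± 26.0 in transgenic tissue (log2 change 0.67, adjusted p = 0.000465, limma), as was Ccl17, a chemokine for T cells that carry CCR4, with 2419 ± 573 in dysplasia and 1097 ± 386 in transgenic tissue (log2 change 1.14, adjusted p = 0.00302, limma). Il15, on which NK cells depend, fell by 0.48 on the log2 scale (adjusted p = 0.0182), and Vcam1, an adhesion molecule for lymphocytes, rose 1.35-fold (adjusted p = 0.0203). Il15 and Vcam1 were named after their values were seen.

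Of 6 tested checkpoint and exhaustion genes 2 fell, Cd274 (PD-L1, 257 ± 38.9 in dysplasia and 606 ± 104 in transgenic tissue, log2 change -1.09, adjusted p = 0.000129, limma) and Ido1, a tryptophan-degrading enzyme, from 109.6 to 32.3, which lies near background. Over all probe sets 17.9% fell in this comparison, so a count of 2 of 6 says little about the list.

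Among markers of other cells, 4 of 11 mesenchymal markers fell, 1 of 8 alveolar type 2 markers rose and 4 of 5 club and ciliated cell markers rose against transgenic tissue (medians -0.34, 0.11 and 1.20), where 17.9% of all probe sets fell and 15.3% rose, so the alveolar type 2 count is no higher than the background. Without the signal limit the dim members Cd8b1 (log2 change -0.72, adjusted p = 0.00539) and Ncr1 (log2 change -0.58, adjusted p = 0.00852) were called lower than in transgenic tissue. Against non-transgenic tissue that fit called Cd8b1, Cd6 and Ncr1 lower and Ctla4 higher (limma, log2 change 0.49, adjusted p = 0.0438).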
